A study of Mus musculus with 20 samples.

Results

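A set of 10 genes that mark the base of the intestinal crypt or answer to Wnt signaling there was followed through the growth of mouse colonic organoids: Lgr5, Ascl2, Smoc2, Axin2, Lrig1, Rnf43, Znrf3, Sox9, Cd44 and Ephb2. They were found by gene symbol in a table of transcript abundances, repeated transcript lines were dropped, and the values of all transcripts of a gene were added. They are 10 of the 35240 gene symbols in the table. All 10 reached a mean value of at least 1 over the samples, the minimum for testing, as did 13539 genes in all.

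Colonic organoids (colonoids) are hollow epithelial structures grown from crypts in a gel. Colonoids from WT mice (C57BL/6) and from mice that lacked TNFR2, the second TNF receptor, in every tissue (Tnfr2-/-, the B6.129S2-Tnfrsf1b tm1Mwm/J allele) were collected on day 1, 2, 3, 5 or 7, counted from the last passage, and polyadenylated RNA was sequenced. The series names 2 mice per genotype, and each group of genotype and day held 2 samples, giving 20 samples in 10 groups. The labels number the samples of a group 1 and 2 without tying the number to an animal, and the number is read here as the mouse. Cultures of both genotypes came from the distal colon of 8-week-old mice, were kept in Matrigel with Intesticult medium, went through 5 passages and were filtered through a 70-µm mesh before seeding. The knockout is not limited to the epithelium, and the study describes Pdgfra+ fibroblasts beside the epithelial cells in such cultures. Early days are days 1, 2 and 3 (6 samples per genotype) and late days are days 5 and 7 (4 samples per genotype). A genotype rests on 2 animals whatever the number of samples. Differences between samples 1 and 2 correlated from day to day at r between 0.0997 and 0.307 in WT and between -0.0511 and 0.0800 in Tnfr2-/-, so the knockout values did not show the pairing. Values are TPM, a measure of transcript abundance corrected for length, rescaled with 1 size factor for each sample, and are here called expression. Because the unit is per length, levels of different genes can be set side by side.

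In the crypt, Wnt ligands bind Frizzled receptors and stabilize β-catenin, which keeps cells at the base undifferentiated and cycling. R-spondins, bound by Lgr5 and its relatives, prolong this signal by holding back the ligases Rnf43 and Znrf3, which remove Frizzled from the cell surface. Several of the genes that β-catenin switches on, among them Axin2, Rnf43 and Znrf3, dampen the same pathway, and others, such as Ephb2 and Cd44, mark cells by their position near the base.

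The targeted gene, Tnfrsf1b, was listed between 11.1 and 21.9 (median 14.3) in the 10 WT samples and between 2.71 and 11.5 (median 4.85) in the 10 Tnfr2-/- samples, so the ranges touched. Its difference was -1.35 on the log2 scale over all days (limma, adjusted p = 9.72e-05), -1.72 at the early days (adjusted p = 1.16e-04) and -0.79 at the late days (adjusted p = 0.0323). From early to late it rose by 1.02 in Tnfr2-/- (adjusted p = 0.00191) and was at 0.08 in WT (adjusted p = 0.800), and the test of that change did not pass (adjusted p = 0.182). From 13007 to 13469 genes per sample reached a value of 1, and the 2 mice of a group correlated at r between 0.923 and 0.956 over the tested genes. Every one of the 10 epithelial markers was above 0 in every sample, with sums between 11728 and 20166. Of 7 immune markers, up to 5 were at 0 in a sample. Their sum was between 8.75 and 16.9 in the late WT samples and between 19.6 and 45.2 in the late Tnfr2-/- samples, and the early ranges were 9.41 to 15.6 and 15.5 to 26.1. Cd68, a macrophage protein of lysosomes, was the largest of them (7.12 to 42.5) and was higher in the knockout at the early days (0.99, adjusted p = 0.0283) and the late days (1.35, adjusted p = 0.00640), while Ptprc, the pan-leukocyte marker CD45, did not exceed 0.753 in any sample. On means per mouse limma called 3 of all 13539 genes between genotypes at the early days and 0 at the late days. The 14 fibroblast markers were above 0 in all samples. Their sum at the late days was 1891 and 2822 in WT mouse 1, 5669 and 7063 in WT mouse 2, 5337 and 11357 in Tnfr2-/- mouse 1, and 7397 and 12437 in Tnfr2-/- mouse 2, on days 5 and 7. The knockout samples of day 7 were the highest of all 20, and WT mouse 1 was the lowest at the late days. The study gives only an approximate depth common to all samples, and that of single samples is not in the table, so no counting error can be attached to a value.

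The 10 genes spanned a wide range of levels. Cd44 was highest, with a mean of 289 over the 20 samples, followed by Rnf43 at 68.5, Ephb2 at 45.1, Axin2 at 36.0, Lrig1 at 26.9 and Sox9 at 24.4. Lgr5 averaged 10.2, Znrf3 4.95, Smoc2 4.46 and Ascl2 3.39. The ranges of neighbors in this order overlapped, except that the lowest Cd44 value, 140, lay above the highest Rnf43 value, 116. Ascl2 did not exceed 8.47 and Znrf3 6.03 in any sample, whereas Smoc2 reached 17.9 in WT and 4.35 in Tnfr2-/-.

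**Figure D1:**
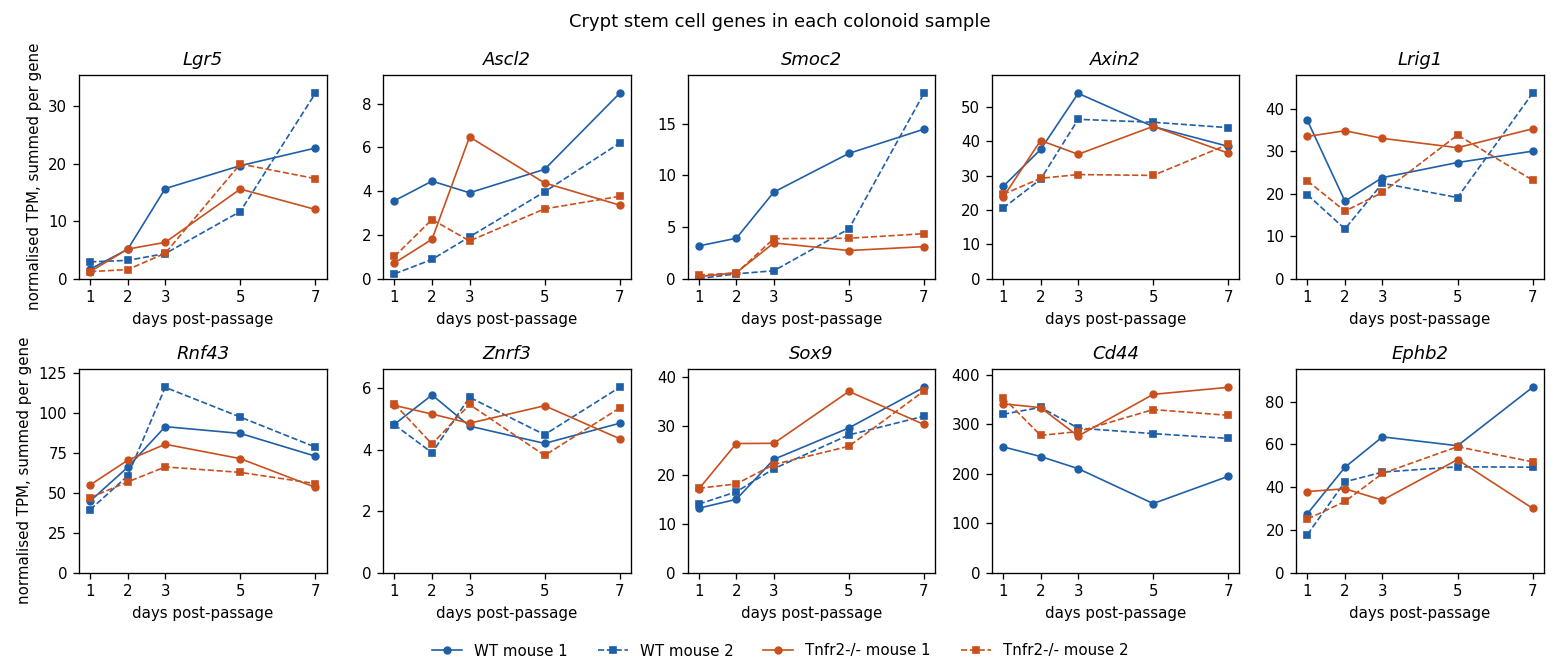
Expression of each of the 10 genes (normalized TPM summed per gene, y axis from 0) against days post-passage, with 1 line per mouse (WT blue, Tnfr2-/- orange, mouse 1 circles and solid, mouse 2 squares and dashed). Lgr5 climbs in all 4 mice from values under 3 on day 1, Rnf43 is highest on day 3 in every mouse, and Znrf3 stays between 3.81 and 6.03.

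Lgr5, the R-spondin receptor that marks the cycling stem cells of the crypt base, showed the largest F statistic for day of the 10 genes (26.9, adjusted p = 2.38e-05). In WT mouse 1 its values on days 1, 2, 3, 5 and 7 were 1.66, 5.12, 15.7, 19.7 and 22.7. In WT mouse 2 they were 2.93, 3.19, 4.37, 11.7 and 32.3. All late WT values except that of mouse 2 on day 5 exceeded every early WT value. In Tnfr2-/- mouse 1 the values were 1.24, 5.15, 6.33, 15.6 and 12.1, and in mouse 2 they were 1.23, 1.58, 4.42, 20.0 and 17.4. Early and late values did not overlap in the knockout, and both knockout mice were lower on day 7 than on day 5, whereas both WT mice were higher. Over the same days the summed epithelial markers went from 18272 to 13375 in knockout mouse 1 and from 18918 to 14136 in mouse 2, while the fibroblast sums went from 5337 to 11357 and from 7397 to 12437. In WT the epithelial sums went from 16281 to 17946 in mouse 1 and from 18230 to 14859 in mouse 2. The WT fibroblast sums went from 1891 to 2822 and from 5669 to 7063. Keratins weighed most in the epithelial sum, with medians of 7511 for Krt19, 5101 for Krt8 and 1992 for Krt18, beside 564 for Epcam. Late against early in Tnfr2-/-, Krt8 (-0.43) and Krt19 (-0.31) fell, while Epcam (1.57), Cdh1 (0.50) and Elf3 (1.23) rose. The part of these sums in the Lgr5 values was not tested, nor was the difference between days 5 and 7. RNA from a whole culture cannot tell fewer cells of a type from less RNA per cell, which holds for every value given here.

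Ordered by their means ± SD (n = 2 each), the Lgr5 groups ran from WT day 7 (27.5 ± 6.74) through Tnfr2-/- day 5 (17.8 ± 3.09), WT day 5 (15.7 ± 5.65), Tnfr2-/- day 7 (14.7 ± 3.80), WT day 3 (10.03 ± 8.01), Tnfr2-/- day 3 (5.37 ± 1.35), WT day 2 (4.15 ± 1.36), Tnfr2-/- day 2 (3.37 ± 2.52) and WT day 1 (2.30 ± 0.894) to Tnfr2-/- day 1 (1.23 ± 0.00759). Only the first and the last group stood clear of their neighbors in this order, and all other neighboring groups overlapped. Late exceeded early by 1.99 ± 0.33 (SE) on the log2 scale in WT (adjusted p = 0.00135) and by 2.15 ± 0.33 in Tnfr2-/- (adjusted p = 7.28e-04), from means of 5.49 to 21.6 and of 3.33 to 16.3. Without day 7 the WT difference was 1.59 (adjusted p = 0.0530) and no longer passed. With 1 of the 2 knockout mice left out, the knockout difference was 2.64 without mouse 1 (adjusted p = 0.0916) and 1.66 without mouse 2 (adjusted p = 0.152), fits in which 2 of all genes tested passed. Between genotypes the late difference of -0.33 ± 0.36 did not pass (adjusted p = 0.638), and it was 0.20 without day 7.

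Ascl2, a transcription factor of the stem cell program, was at or under 4.46 in every early sample but one, the day 3 sample of Tnfr2-/- mouse 1 at 6.48. WT mouse 1 held 3.56, 4.46, 3.93, 5.00 and 8.47 over the 5 days, and WT mouse 2 held 0.219, 0.880, 1.91, 3.97 and 6.20. Both WT mice were highest on day 7, while the knockout mice ended at 3.36 and 3.76. Late minus early was 1.13 ± 0.41 in WT (adjusted p = 0.0657) and 0.63 ± 0.41 in Tnfr2-/- (adjusted p = 0.315). With the numbers read as mice, the WT difference passed in a blocked fit that let the samples of a mouse correlate (adjusted p = 0.0410) and in a fit with a term for each mouse (adjusted p = 0.0228). It also passed with a pseudocount of 5 (adjusted p = 0.0490) and without WT mouse 1 on day 1 (adjusted p = 0.0193) or on day 2 (adjusted p = 0.0321). It was 0.60 without WT mouse 2 (adjusted p = 0.356) and 1.67 without WT mouse 1 (adjusted p = 0.0552). The test for any effect of day missed the threshold as well (F = 4.20, adjusted p = 0.0515), and passed with either block (adjusted p = 0.0349 and 0.0145), with a pseudocount of 0.1 (adjusted p = 0.0496), with protein-coding transcripts alone (adjusted p = 0.0450) and in 6 of the 24 fits that left out 1 sample or 1 mouse (adjusted p from 0.0159 to 0.189 over the 24).

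Smoc2, a secreted matrix protein of the Lgr5 stem cell signature, changed with day (F = 7.34, adjusted p = 0.00800) and rose late in WT by 2.12 ± 0.50 (adjusted p = 0.0106), from an early mean of 2.78 to a late mean of 12.3. WT mouse 1 held 3.17, 3.91, 8.39, 12.1 and 14.5, and WT mouse 2 was listed at 0 on day 1, then at 0.470, 0.765, 4.82 and 17.9. WT mouse 1 lay above WT mouse 2 up to day 5, and the order turned on day 7. Tnfr2-/- mouse 1 held 0.192, 0.577, 3.46, 2.73 and 3.10, and mouse 2 held 0.363, 0.542, 3.87, 3.91 and 4.35. Neither knockout mouse exceeded 4.35 on any day. The knockout difference between late and early was 1.09 ± 0.50 (adjusted p = 0.150), and it passed with a term for each mouse (adjusted p = 0.0301) and without WT mouse 1 or mouse 2, which enter through the shared estimate of spread (adjusted p = 0.00561 and 0.00392). The WT rise was 2.93 without WT mouse 1 and 1.30 without WT mouse 2 and passed in both fits (adjusted p = 0.00131 and 0.0114). It did not pass without WT mouse 1 on day 5 (adjusted p = 0.0539), without day 7 (adjusted p = 0.175), or without either knockout mouse (adjusted p = 0.0807 and 0.0812). Its day effect was lost without day 7 (adjusted p = 0.0619) and without knockout mouse 1 (adjusted p = 0.0653) or mouse 2 (adjusted p = 0.0916).

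Of the feedback regulators of Wnt signaling, Rnf43 and Axin2 changed with day and Znrf3 did not pass any test. Rnf43, a membrane ubiquitin ligase that clears Frizzled receptors, changed with day (F = 9.64, adjusted p = 0.00264) and was highest on day 3 in all 4 mice. Its values on days 1, 2, 3, 5 and 7 were 44.7, 65.9, 91.2, 87.0 and 72.8 in WT mouse 1 and 39.3, 60.5, 116, 97.2 and 78.5 in WT mouse 2. Tnfr2-/- mouse 1 held 54.8, 70.2, 80.2, 71.2 and 53.3, and mouse 2 held 46.9, 56.7, 66.1, 62.6 and 55.6. The knockout mice began slightly above WT on day 1 and were below both WT mice on days 3, 5 and 7. Axin2, a scaffold of the complex that degrades β-catenin and a widely used readout of its activity, also changed with day (F = 7.63, adjusted p = 0.00687). It was lowest on day 1 in all 4 mice, between 20.5 and 26.8, and reached 53.9 and 46.4 in the WT mice on day 3. Its late minus early difference was 0.33 ± 0.14 in WT and 0.29 ± 0.14 in Tnfr2-/-, with adjusted p = 0.115 and 0.171. Without WT mouse 2 its day effect did not pass (adjusted p = 0.0800). Znrf3, the close relative of Rnf43, lay between 3.81 and 6.03 in all samples and did not pass for day (F = 0.482, adjusted p = 0.818) or in any other comparison.

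Sox9, a transcription factor of crypt progenitors, rose in both genotypes. Its values in the WT mice were 13.2 and 14.0 on day 1, 15.0 and 16.5 on day 2, 23.1 and 21.2 on day 3, 29.5 and 28.1 on day 5, and 37.8 and 31.9 on day 7. The late WT samples all lay above the early ones. In Tnfr2-/- the 6 early samples lay between 17.1 and 26.4 and the 4 late samples between 25.8 and 37.1. The late difference was 0.88 ± 0.14 in WT (adjusted p = 9.99e-04) and 0.60 ± 0.14 in Tnfr2-/- (adjusted p = 0.00783). The WT rise missed the threshold without WT mouse 1 (adjusted p = 0.0724), and the knockout rise without mouse 1 (adjusted p = 0.136), mouse 2 (adjusted p = 0.167) or day 7 (adjusted p = 0.0847). Lrig1, a membrane protein that restrains growth factor receptors of the ErbB family and marks a broader set of crypt stem cells, lay between 11.7 and 43.7 with no effect of day (F = 2.00, adjusted p = 0.257).

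Ephb2, a receptor for ephrin-B ligands that helps to place cells along the crypt, changed with day (F = 5.27, adjusted p = 0.0257) and was lowest on day 1 in both WT mice, at 27.6 and 17.8. WT mouse 1 then held 49.3, 63.5, 59.4 and 86.7, and WT mouse 2 held 42.5, 47.0, 49.5 and 49.3. WT mouse 1 lay above WT mouse 2 on every day. Tnfr2-/- mouse 1 held 37.9, 39.2, 33.9, 52.9 and 30.1, and mouse 2 held 25.1, 33.3, 46.4, 58.9 and 51.8, so that both were highest on day 5. The late rise in WT was 0.63 ± 0.21 with an adjusted p of 0.0493, at the edge of the threshold. It stayed past it in only 5 of the 24 fits that left out 1 sample or 1 mouse (adjusted p from 0.0179 to 0.250), and it was lost in 6 of 11 other alternatives. These were a pseudocount of 0.1 (adjusted p = 0.0508), no filter on low values (adjusted p = 0.0834), median-ratio rescaling (adjusted p = 0.0537), limma without a trend (adjusted p = 0.0640), protein-coding transcripts alone (adjusted p = 0.0773) and days up to 5 alone (adjusted p = 0.186). The day effect was lost with no filter on low values (adjusted p = 0.0504) and with protein-coding transcripts alone (adjusted p = 0.0590). It was also lost without any of 3 day 1 samples, those of WT mouse 1 (adjusted p = 0.0691), WT mouse 2 (adjusted p = 0.103) and Tnfr2-/- mouse 2 (adjusted p = 0.0606), and without all samples of WT mouse 1 (adjusted p = 0.0796), WT mouse 2 (adjusted p = 0.119) or Tnfr2-/- mouse 2 (adjusted p = 0.223). Ephb2 lies on the same chromosome as the targeted gene, 8.38 Mb away, where DNA of the strain used for targeting can remain, and whether its values depend on that was not tested.

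Cd44, the hyaluronan receptor that marks crypt base cells and whose longer forms carry extra exons, was the only gene of the 10 whose mice moved in opposite directions by genotype. The share of all genes that did so is not given here. WT mouse 1 held 254, 235, 210, 140 and 195, and WT mouse 2 held 320, 334, 292, 281 and 271. Tnfr2-/- mouse 1 held 341, 334, 276, 360 and 375, and mouse 2 held 354, 278, 285, 330 and 318. Late WT values were lower than early ones in each mouse, late knockout values were higher on average, and WT mouse 1 lay below all others on every day. Late minus early was -0.34 ± 0.18 in WT (adjusted p = 0.213) and 0.16 ± 0.18 in Tnfr2-/- (adjusted p = 0.607). The WT difference passed with a term for each mouse (adjusted p = 0.0249), without WT mouse 2 (-0.49, adjusted p = 0.0210) and without its day 5 sample (-0.59, adjusted p = 0.0217). It was -0.19 without WT mouse 1 (adjusted p = 0.363), -0.09 without its day 5 sample (adjusted p = 0.754) and -0.22 without its day 7 sample (adjusted p = 0.540). The test of the difference between the genotypes gave 0.50 ± 0.26 and did not pass (adjusted p = 0.485). The summed fibroblast markers of WT mouse 1 were 5677, 4449, 2907, 1891 and 2822 over the 5 days, lowest on day 5 as its Cd44 was, and those of WT mouse 2 lay between 5669 and 7063. Dcn, which encodes the matrix proteoglycan decorin and is 1 of these 14 markers, fell late in WT by 0.90 (adjusted p = 0.00775) and rose in Tnfr2-/- by 0.91 (adjusted p = 0.00696), and the difference between the genotypes passed (1.81, adjusted p = 0.0403). It was the only marker of the 14 for which that difference passed, and 13 of the 14 had a value above 0. On means per mouse limma called 0 of all 13539 genes in that test, Dcn included. The part of the fibroblast markers in the Cd44 values was not tested.

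Cd44 has 19 coding exons in the 8 coding transcripts of the table, 9 of them in every transcript and 10 variable. The only transcript that holds all of them, ENSMUST00000005218, is also the only one with coding exons 6, 7 and 8. Those exons are printed here from the GRCm38 genome because they set this form apart from the others. They lie on the minus strand at chr2:102848657-102848782, chr2:102846403-102846519 and chr2:102845285-102845410, and are written 5′ to 3′ of the transcript, with no capitals since each whole exon is the distinguishing part.
Cd44 coding exon 6: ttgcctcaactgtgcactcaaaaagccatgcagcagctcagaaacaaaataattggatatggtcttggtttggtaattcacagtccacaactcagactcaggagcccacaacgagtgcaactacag
Cd44 coding exon 7: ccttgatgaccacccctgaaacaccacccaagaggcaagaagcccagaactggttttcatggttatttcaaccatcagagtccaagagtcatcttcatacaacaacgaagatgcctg
Cd44 coding exon 8: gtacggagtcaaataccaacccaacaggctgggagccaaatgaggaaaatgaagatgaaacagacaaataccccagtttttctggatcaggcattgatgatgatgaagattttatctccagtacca

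The transcript with all variable exons held 20.8% of the summed Cd44 value over the samples. In WT mice 1 and 2 its values were 67.1 and 96.7 on day 1 and 33.5 and 50.1 on day 7, and its shares of Cd44 were 26.4% and 30.2% on day 1 and 17.2% and 18.5% on day 7. All 6 early WT shares (23.1% to 30.2%) lay above all 4 late ones (16.0% to 20.8%). In Tnfr2-/- the early shares of 16.3% to 26.0% and the late shares of 9.53% to 20.9% overlapped. In the fit over all transcripts its late minus early difference was -0.86 ± 0.28 in WT (adjusted p = 0.128) and -0.14 ± 0.28 in Tnfr2-/- (adjusted p = 0.881), so neither passed. Transcripts with at least 1 variable exon made up most of Cd44 in every sample, 78.8% to 97.1%. Short reads divide between such overlapping transcripts by a statistical model, and the split is less certain than the sum.

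**Figure D2:**
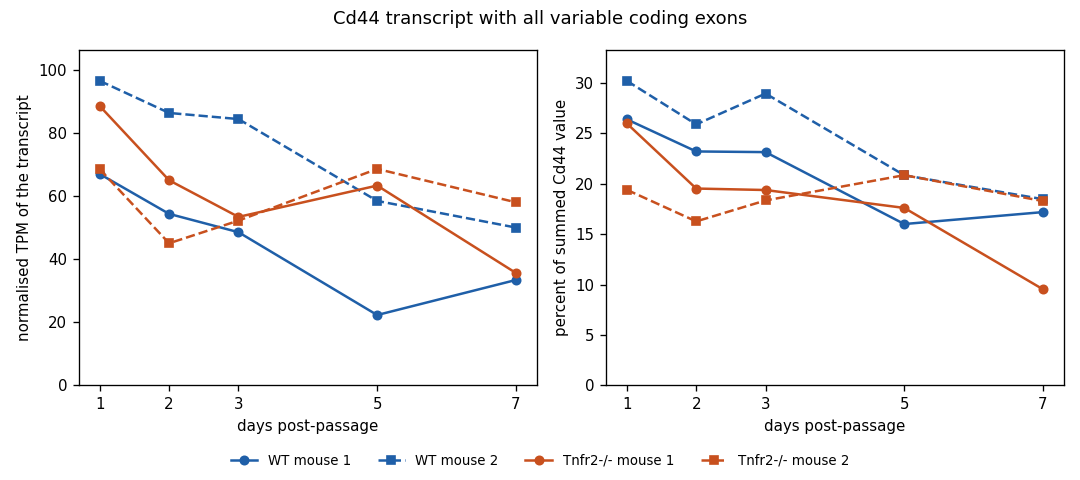
Left, expression of the Cd44 transcript that holds all 10 variable coding exons (normalized TPM), and right, its percentage of the summed Cd44 value, against days post-passage for each mouse (WT blue, Tnfr2-/- orange). Both WT mice end lower than they began, with shares of 17.2% and 18.5% on day 7, and the lowest share, 9.53%, is Tnfr2-/- mouse 1 on day 7.

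Day had an effect on 6 of the 10 (Lgr5, Sox9, Rnf43, Axin2, Smoc2 and Ephb2), against 28.0% of all genes tested. Late against early, 5 rose in WT (Sox9, Lgr5, Smoc2, Rnf43 and Ephb2) and none fell, where 20.1% of all genes were called and 11.6% were called higher late. In Tnfr2-/- Lgr5 and Sox9 rose and none fell, where 20.3% of all genes were called and 10.4% were called higher late. The median of the 10 differences was 0.53 in WT and 0.35 in Tnfr2-/-, beside medians over all genes of 0.02 in both. The 10 epithelial markers, which hold general genes of the epithelium such as Epcam and Cdh1, had the same medians at this precision, with 6 rising and none falling in WT and 3 rising and 2 falling in Tnfr2-/-. No test set the crypt genes against these markers. Rnf43 rose in WT by 0.36 ± 0.11 (adjusted p = 0.0329) and was at -0.03 ± 0.11 in Tnfr2-/- (adjusted p = 0.889), and the test of that difference did not pass. Its WT rise was lost without any of 7 of the 10 WT samples (adjusted p from 0.0537 to 0.0906), without any 1 mouse (adjusted p from 0.0896 to 0.197) and without day 7 (adjusted p = 0.0630). Without day 7, when late is day 5 alone, Sox9 remained called in WT and Lgr5 in Tnfr2-/-, and no other gene of the 10 was. The shares of all genes called were then 6.87% in WT and 7.43% in Tnfr2-/-.

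**Figure D3:**
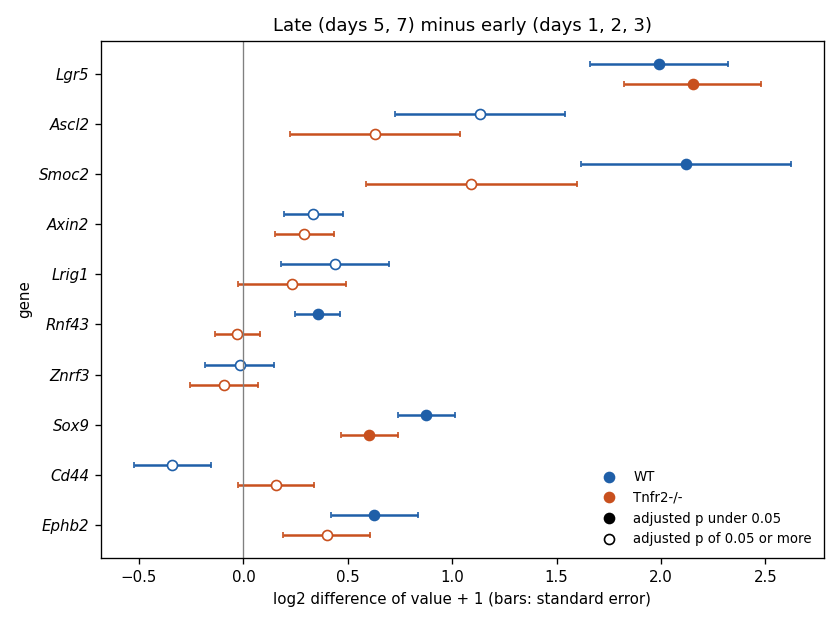
Late minus early difference of each gene on the log2 scale (x axis; bars are standard errors) in WT (blue) and Tnfr2-/- (orange), with filled points where the adjusted p was under 0.05. Lgr5 sits near 2 in both genotypes, Smoc2 at 2.12 in WT and 1.09 in Tnfr2-/-, and Znrf3 near 0.

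Between genotypes, 1 of the 10 genes was called in any comparison. Over all days limma called 0 of 10, against 7.60% of all genes, and 3 had an unadjusted p under 0.05: Cd44 (0.39 ± 0.13, adjusted p = 0.0712), Smoc2 (-0.83 ± 0.34, adjusted p = 0.160) and Rnf43 (-0.23 ± 0.10, adjusted p = 0.178). At the early days limma called 0 of 10, against 1.20% of all genes, and Sox9 alone had an unadjusted p under 0.05 (0.30 ± 0.12, adjusted p = 0.314). At the late days 1 of 10 was called, Rnf43, which was lower in Tnfr2-/- by 0.46 ± 0.12 (value -0.46, adjusted p = 0.0343), against 6.45% of all genes. The median late difference of the 10 was -0.27, beside -0.05 over all genes. In the test of whether the genotype effect itself changed from early to late days limma called 0 of 10, against 0.148% of all genes, and Rnf43 alone had an unadjusted p under 0.05 (-0.39 ± 0.15, adjusted p = 0.340). The shares over all genes moved with the samples used. Without 1 mouse they ranged from 1.05% to 14.2% over all days, from 0.118% to 5.37% at the early days and from 0.148% to 16.3% at the late days, each lowest without Tnfr2-/- mouse 2 and highest without WT mouse 2. The late share was 2.11% without WT mouse 1 on day 5 and 10.7% without WT mouse 2 on day 5, and the share over all days was 4.03% with the mouse as a correlated block.

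At the late days the genotypes did not overlap for 3 of the 10 genes, where 11.4% of all genes had separate ranges in 4 samples against 4. Rnf43 lay between 72.8 and 97.2 in WT (83.9 ± 10.6, mean ± SD, n = 4) and between 53.3 and 71.2 in Tnfr2-/- (60.7 ± 8.06). Smoc2 lay between 4.82 and 17.9 in WT and between 2.73 and 4.35 in Tnfr2-/-, a log2 difference of -1.45 ± 0.55 (adjusted p = 0.137). Cd44 lay between 140 and 281 in WT and between 318 and 375 in Tnfr2-/-, a log2 difference of 0.69 ± 0.20 (adjusted p = 0.0594). Rnf43 and Smoc2 were thus the lower ones in the knockout and Cd44 the higher one. At the early days no gene of the 10 had separate ranges, where 1.28% of all genes did.

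The Rnf43 call was lost without any 1 of the 8 late samples or any 1 of the 4 mice (adjusted p up to 0.336), without day 7 (adjusted p = 0.231), on means per mouse (adjusted p = 0.282) and without the mean-variance trend (adjusted p = 0.0541). For Smoc2 the late difference passed with a pseudocount of 5 (-0.96, adjusted p = 0.0418) and without WT mouse 1 (-1.23, adjusted p = 0.0417) or WT mouse 2 (-1.67, adjusted p = 0.00404), and for Cd44 it passed without WT mouse 2 (1.06, adjusted p = 9.07e-04) or its day 5 sample (0.94, adjusted p = 0.00555). The late Cd44 difference was 0.32 without WT mouse 1 (adjusted p = 0.146) and 0.44 without its day 5 sample (adjusted p = 0.223). Over all days Smoc2 was called without WT mouse 2 (-1.54, adjusted p = 1.05e-04) or its day 3 sample (adjusted p = 0.0277), and it was at -0.12 without WT mouse 1 (adjusted p = 0.899). Cd44 was called over all days without WT mouse 2 (0.67, adjusted p = 0.00289), its day 2 sample (adjusted p = 0.0362) or its day 3 sample (adjusted p = 0.0439), and it was at 0.11 without WT mouse 1 (adjusted p = 0.512). Without WT mouse 2 both were also called at the early days, Smoc2 at -1.46 (adjusted p = 0.00561) and Cd44 at 0.41 (adjusted p = 0.0361), whereas without WT mouse 1 they were at 0.61 (adjusted p = 0.241) and -0.02 (adjusted p = 0.938). The sum of the 14 fibroblast markers was between 1891 and 7063 in the late WT samples and between 5337 and 12437 in the late knockout samples, lowest in WT mouse 1, which also had the lowest Cd44. The sum of the 7 immune markers did not overlap between the genotypes at the late days either, at 8.75 to 16.9 in WT and 19.6 to 45.2 in the knockout. The part of these differences in the late genotype values was not tested.

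**Figure D4:**
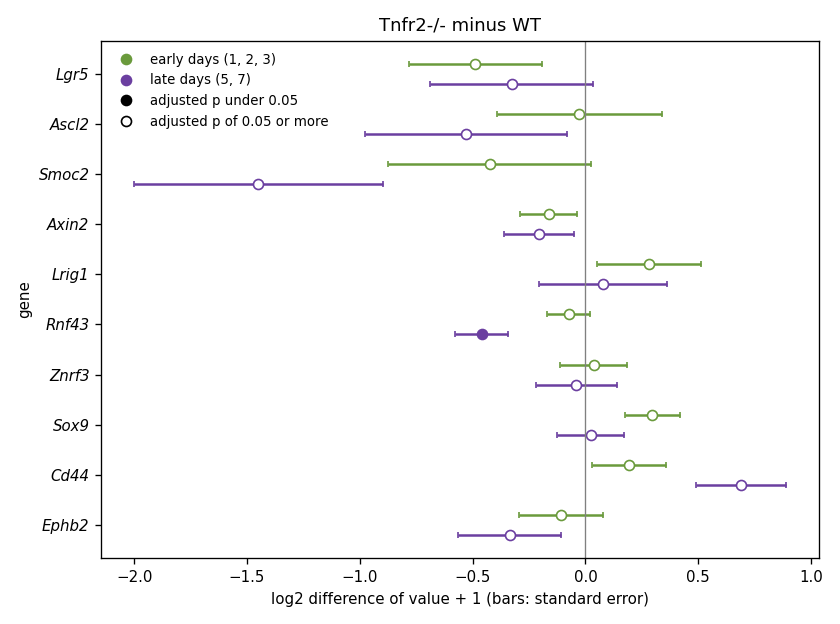
Tnfr2-/- minus WT difference of each gene on the log2 scale (x axis; bars are standard errors) at the early days (green) and late days (purple), with filled points where the adjusted p was under 0.05. Rnf43 at the late days (-0.46) is the only filled point, while Smoc2 (-1.45) and Cd44 (0.69) lie farther from 0 with wider errors.

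**Figure D5:**
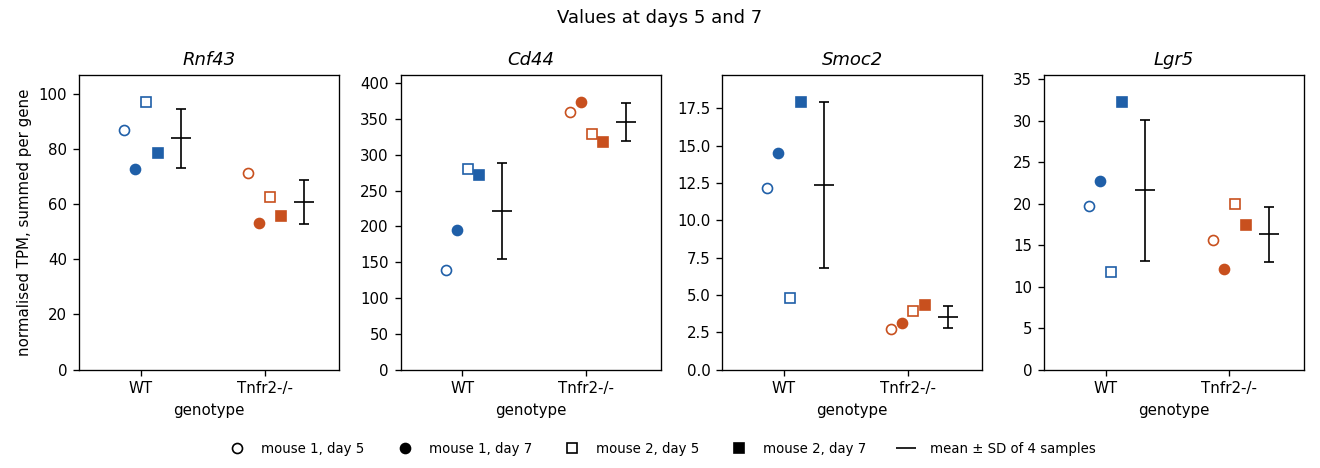
Expression of Rnf43, Cd44, Smoc2 and Lgr5 at days 5 and 7 (normalized TPM, y axes from 0) by genotype, with 1 point per sample and the mean ± SD of 4 samples as a bar. The genotypes are apart for Rnf43, Cd44 and Smoc2 and overlap for Lgr5, whose WT samples run from 11.7 to 32.3.

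Of 13 other genes of the stem cell signature tested, 4 rose late and 1 fell in WT, led by Slc12a2, a chloride cotransporter of crypt cells (0.97, adjusted p = 1.77e-04), and Prom1 (0.39, adjusted p = 0.0150). Mex3a, an RNA-binding protein of slowly cycling Lgr5 cells, rose by 0.68 (adjusted p = 0.0171), and Msi1, another RNA-binding protein, fell by 1.04 (adjusted p = 0.0279). In Tnfr2-/- 3 rose and none fell, namely Slc12a2 (0.85, adjusted p = 2.47e-04), Mex3a (0.88, adjusted p = 0.00420) and Prom1 (0.42, adjusted p = 0.00960). Over all genes 20.1% were called in WT and 11.6% were called higher late, and in Tnfr2-/- 20.3% and 10.4%. The list's median was 0.39 in WT and 0.09 in Tnfr2-/-, beside 0.02 over all genes in each. At the late days Tnfrsf19 (Troy), a receptor enriched in stem cells, was lower in the knockout (-1.83, adjusted p = 0.0147) and Msi1 was higher (1.92, adjusted p = 0.00520). They were the 2 called of the 13, where 6.45% of all genes were called. On means per mouse limma called 0 of all 13539 genes at the late days.

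Of 12 Wnt response genes outside the 10 that were tested, 1 rose and 1 fell late in WT. Late against early, 20.1% of all genes were called in WT and 20.3% in Tnfr2-/-. Ephb3, a relative of Ephb2, rose (0.57, adjusted p = 0.0341), and Ccnd1, the G1 cyclin D1, fell (-0.57, adjusted p = 0.0127). In Tnfr2-/- 3 fell and none rose: Ccnd1 (-1.12, adjusted p = 2.24e-04), the growth regulator Myc (-0.57, adjusted p = 0.00377) and Tiam1 (-0.82, adjusted p = 0.0458). The medians were -0.23 in WT and -0.03 in Tnfr2-/-, beside 0.02 over all genes in each. Over all days Notum, a secreted enzyme that inactivates Wnt ligands, was higher in the knockout (1.34, adjusted p = 0.00397), the 1 gene of the 12 called, where 7.60% of all genes were. On means per mouse limma called 7 of all 13539 genes over all days.

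Of 16 receptors and β-catenin pathway components tested, 4 rose late in WT and 8 in Tnfr2-/-, and none fell in either, where 11.6% and 10.4% of all genes were called higher late and 20.1% and 20.3% were called in all. Lgr4, the R-spondin receptor with the broadest expression, rose by 0.79 in WT (adjusted p = 0.00598) and by 0.58 in Tnfr2-/- (adjusted p = 0.0280). Ctnnb1, which encodes β-catenin, rose by 0.59 (adjusted p = 0.00231) and 0.53 (adjusted p = 0.00415). The Wnt coreceptor Lrp6 rose in Tnfr2-/- by 0.50 (adjusted p = 0.00345). The medians were 0.34 and 0.44, beside 0.02 over all genes in each. Between genotypes limma called 0 of the 16 over all days, at the early days and at the late days, where 5, 3 and 2 had an unadjusted p under 0.05. The shares of all genes called were 7.60%, 1.20% and 6.45%.

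Of 10 proliferation genes tested, 9 fell late in each genotype and none rose, among them the mitotic kinase Cdk1 (-1.13 in WT, adjusted p = 1.87e-04, and -1.15 in Tnfr2-/-, adjusted p = 1.18e-04) and Birc5 (-1.21, adjusted p = 2.92e-04, and -1.66, adjusted p = 6.00e-05). The medians were -0.79 and -1.15. Of all 13539 genes, 1153 were called lower late in WT and 1344 in Tnfr2-/-. Of 13 genes of mature colon epithelium tested, 7 rose late in WT and 4 in Tnfr2-/-, and the others did not pass. Among all genes 11.6% and 10.4% were called higher late. Muc2, the goblet cell mucin, was at 4.31 (adjusted p = 0.0112) and 3.22 (adjusted p = 0.0422). The medians of the 13 were 2.03 and 0.87. Of 8 regenerative genes tested, 1 rose and 2 fell in WT and 1 rose and 1 fell in Tnfr2-/-, with Spp1 (osteopontin) rising in both (1.21, adjusted p = 0.00454, and 2.05, adjusted p = 1.62e-04) and Krt7 falling in both (-0.56, adjusted p = 0.00570, and -0.68, adjusted p = 0.00172). The shares of all genes called late against early were 20.1% in WT and 20.3% in Tnfr2-/-.

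The genes most like Lgr5 over the 20 samples, by Pearson's r of log2 values, were Ttr (0.926), a carrier of thyroid hormone, the solute carrier Slc17a4 (0.923), Bicdl2 (0.919), Chdh (0.918), a choline-oxidizing enzyme, and Gne (0.918), an enzyme of sialic acid synthesis. The samples share mice and days, so these values describe a common course and carry no test. Gne ran from 33.9 to 351 over the samples and Ttr from 0 to 94.0. Each of the 5 rose late in both genotypes, with Gne at 1.95 in WT and 1.41 in Tnfr2-/- (adjusted p = 2.92e-04 and 0.00170). Among the other 9 genes of the group, Sox9 came nearest to Lgr5 (r = 0.841, rank 165 of 13538 genes) and Smoc2 next (r = 0.828, rank 211). Ascl2 (0.711), Axin2 (0.710) and Ephb2 (0.707) ranked 778 to 796, Rnf43 reached 0.494 and Lrig1 0.368, and Znrf3 (-0.07) and Cd44 (-0.35) were below 0. None of the 10 was among the 5 genes closest to Lgr5.

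The sums of some genes rest in part on transcripts that encode no protein. The full-length coding transcript of Lgr5 (ENSMUST00000020350, 18 exons) held 67.5% of its sum, and a short retained-intron entry of 560 bases (ENSMUST00000144732) held 13.7% while being listed at 0 in 12 of the 20 samples. The full-length share averaged 36.8% in early WT (9.55% to 69.9%), 68.0% in early Tnfr2-/-, 75.6% in late WT and 68.0% in late Tnfr2-/-. On this transcript the genotype difference over all days was -0.11, beside -0.42 for the sum, and neither passed. Its late rise was larger in WT (2.63) than in Tnfr2-/- (2.04), unlike that of the sum (1.99 and 2.15). No test compared the transcript's rises. A 438-base entry made up 27.1% of Lrig1 (ENSMUST00000203876), and retained-intron entries made up 33.3% of Ephb2 (ENSMUST00000151502) and 26.0% of Rnf43 (ENSMUST00000134684). With protein-coding transcripts alone, the genotype difference over all days turned from 0.20 to -0.11 for Lrig1 and from -0.20 to 0.04 for Ephb2, and the WT rise of Axin2 passed (0.40, adjusted p = 0.0348). Smoc2 and Sox9 each had 1 transcript, which carried the whole sum.

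Of the 17 transcripts that held at least 20% of a gene of the group, 2 rose late in WT, where 3.41% of all 38609 transcripts tested were called and 2.02% were called higher late. The same 2 rose in Tnfr2-/-, where 3.34% were called and 1.62% were called higher late. They were the full-length Lgr5 transcript, by 2.63 ± 0.39 in WT (adjusted p = 0.00465) and 2.04 ± 0.39 in Tnfr2-/- (adjusted p = 0.0156), and the Sox9 transcript ENSMUST00000000579 (0.88, adjusted p = 0.00872, and 0.60, adjusted p = 0.0457). The full-length Lgr5 transcript ran from 0.304 to 22.4 over the samples. None of the 17 fell. Between genotypes over all days limma called 0 of 17, against 0.715% of all transcripts, and 2 had an unadjusted p under 0.05. For the promoters, RefSeq entries on the same build were at hand for 6 of the 10 genes, and not for Lgr5, Sox9, Smoc2 or Znrf3. None of the 7 entries of these 6 genes held the TCF-type motif CTTTGA, or TCAAAG as the same motif on the other strand, in the 250 bases before the start site. Of all entries 13.8% did. At that share a count of 0 in 7 entries says little, and other forms of the motif were not searched.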

How the data were processed

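Polyadenylated RNA of 20 colonoid samples was read as single-end 75-base stranded reads. According to the submitters' processing notes and the study, CASAVA, kallisto and sleuth were used with mm10. The authors deposited a signal per transcript, TPM divided by a size factor per library, with sums between 900655 and 1111080. Their p-values, q-values and test statistics in the same table were not used. The unit was not known when the tests were set, and the rule for normalized values was applied. Of 113974 lines, 781 exact repeats were dropped, and 113193 transcripts were summed per symbol. The study gives an approximate depth for all samples alike, and the depth of single samples is not given in the table used here.

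Values were analyzed as log2(value + 1) with limma 3.58.1 in R 4.3.3 (mean of at least 1, mean-variance trend, Benjamini-Hochberg adjustment over all genes or transcripts tested, threshold 0.05). Differences on this scale understate changes of low values. Genotype over all days and the F-test for day came from day plus genotype, and all other contrasts from a fit with 10 group means. The fits were tested on simulated data. Python 3.11.15 and matplotlib 3.10.9 made tables and figures, and transcripts were described from GENCODE on GRCm38 (98.4% matched). The genes and lists were chosen with earlier results of these data known. All 10 genes are named, with up to 4 genes per list by lowest p, the 5 genes most correlated with Lgr5, and transcripts holding at least 20% of a sum.

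The labels' number was read as the mouse, a reading the labels do not state, and the fits blocked on it rest on that reading. Differences between the 2 mice correlated from day to day at r between 0.0997 and 0.307 in WT and between -0.0511 and 0.0800 in Tnfr2-/-.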

Additional observations from a re-analysis of the deposited data

Results flagged for a closer look

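Cd44 was the only one of the 10 genes for which both mice of one genotype moved one way from early to late and both mice of the other genotype the opposite way. The share of all genes with this pattern is not given here, so how unusual it is cannot be told. Late minus early was -0.49 and -0.19 on the log2 scale in WT mice 1 and 2, and 0.22 and 0.09 in Tnfr2-/- mice 1 and 2. The fitted difference between these effects was 0.50 and did not pass (limma, adjusted p = 0.485). Its unadjusted p was 0.0774. Over fits without 1 sample or 1 mouse it ranged from 0.25, without the day 5 sample of WT mouse 1, to 0.75, without that of WT mouse 2, and passed in none. The fibroblast marker Dcn also fell late in WT (-0.90) and rose in Tnfr2-/- (0.91), with a difference that passed (1.81, adjusted p = 0.0403). On means per mouse limma called 0 of all genes in that test. The summed fibroblast markers of WT mouse 1 were lowest on day 5 (1891), as its Cd44 was (140). The part of the fibroblast markers in the Cd44 pattern was not tested.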

How the results depend on the processing

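Of 38 differences and F statistics of the 10 genes followed through the alternatives, few turned direction, and none that was called did. Without day 7, an alternative chosen after seeing the data, the members called were 0 between genotypes at the late days, 1 late against early in WT and 1 in Tnfr2-/-, and Lgr5 between genotypes at the late days was 0.20 and Rnf43 late minus early in Tnfr2-/- was 0.12. With protein-coding transcripts alone, also chosen after seeing the data, Lrig1 and Ephb2 between genotypes over all days were -0.11 and 0.043. At the late days the genotype count of 1 became 2 with a pseudocount of 5, 0 without a trend and 0 on means per mouse. With no filter on low values 1 transcript was called late against early in Tnfr2-/- in place of 2. With 1 sample or 1 mouse left out, the genotype counts of members called ranged from 0 to 2 over all days, at the early days and at the late days, those of late against early from 2 to 6 in WT and from 0 to 3 in Tnfr2-/-, and transcripts from 0 to 1 for genotype and from 0 to 2 late against early in Tnfr2-/-. Over the same fits Lrig1 between genotypes over all days ranged from -0.075 to 0.47, Ephb2 from -0.43 to 0.030, Smoc2 at the early days from -1.46 to 0.61, Cd44 at the early days from -0.025 to 0.41, and Rnf43 late minus early in Tnfr2-/- from -0.13 to 0.075. The cause was not tested. Of 32 further differences not given in the text, 20 turned direction in some fit and 0 were called in any.

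A replicate number shared between genotypes marks no shared animal: differences between mice 1 and 2 correlated across genotypes at r between -0.0536 and 0.0761. A replicate block on it gave 1 member called over all days and 2 at the late days. The block on the mouse within a genotype changed no calls beyond those given with Ascl2, Smoc2 and Cd44.

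With 2 mice per genotype, means per mouse called between 0 and 7 genes of all tested in any genotype comparison, so a missing call there says little. The study gives an approximate depth for all samples alike, and the number of reads behind a low value in a given sample cannot be read from the table.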
